A study of Mus musculus with 8 samples.

Results

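The genes described here encode NF-κB subunits and the proteins that restrain NF-κB. They are the subunit genes Nfkb1, Nfkb2 and Relb, the classical inhibitor genes Nfkbia, Nfkbib and Nfkbie, and the nuclear IκB genes Nfkbiz and Bcl3. The others are Tnfaip3, whose product edits ubiquitin, and Tnip1, whose product binds it. Members were taken by gene symbol from the table of read counts, and all 10 genes were found among its 54532 gene identifiers. Each of the 10 passed the expression filter, as did 15472 genes in all. The samples were prostate tissue of 8 male NOD mice, an inbred strain with spontaneous autoimmune inflammation, harvested at 30 weeks of age. Control mice (n = 4) received the PBS vehicle, and etanercept-treated mice (n = 4) received 4 mg/kg etanercept, a soluble TNF receptor fusion protein that captures TNF. Both were injected intraperitoneally on 2 days per week for 5 weeks from 25 weeks of age, and diabetic and non-diabetic animals were pooled by the study, which found antibodies against etanercept in treated mice. The animal numbers in the labels, 1, 3, 65 and 69 for control and 17, 19, 50 and 52 for etanercept, serve as names of the mice.

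NF-κB is a family of dimeric transcription factors that IκB proteins hold in the cytoplasm. When TNF binds its receptor, the IKK kinase complex marks IκBα for destruction, and the freed dimers enter the nucleus and switch on inflammatory genes. Among the genes they switch on are those of their own inhibitors, so that the transcripts of IκBα, A20 and related proteins follow NF-κB activity and shut it down again. A second, non-canonical branch processes the Nfkb2 product p100 into p52, which pairs with RelB and is driven in lymphoid tissue by lymphotoxin and related ligands.

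Promoter sequences show how many of these genes carry the binding motif of the factor they regulate. The RefSeq promoter table of GRCm38.p6, with 250 bases before and 50 bases after each annotated start site, matched 7 of the 10 genes, with 10 start sites between them. Nfkb1, Relb and Nfkbiz were not matched. The κB consensus was searched on both strands, and overlapping matches are printed as 1 run of capitals. It was present at 8 of the 10 start sites, in 6 of the 7 genes, and in 8.46% of all 32851 promoters of the table. Nfkbib was the gene without a match in its window. A match describes letters in a window and not a bound site.

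The sequence before the Nfkbia start site is shown because Nfkbia had the most abundant transcript of the group per exon length and was lower with etanercept at an unadjusted p below 0.05. These 250 bases lie at chr12:55492648-55492897 on the minus strand, printed 5′ to 3′ with the κB match in capitals, 29 bases before the start site.
Nfkbia: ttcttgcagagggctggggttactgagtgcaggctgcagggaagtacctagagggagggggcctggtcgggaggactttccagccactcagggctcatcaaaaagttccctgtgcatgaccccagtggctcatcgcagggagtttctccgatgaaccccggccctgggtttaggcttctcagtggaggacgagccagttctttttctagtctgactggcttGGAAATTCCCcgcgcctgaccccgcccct

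For each other gene with a match, 1 is shown in a short window on the strand of the gene, with the match in capitals, to let the sites be compared. That of Bcl3 (chr7:19822734-19822763, minus strand) began at base 3 of the transcript, those of Nfkbie (chr17:45555584-45555613, plus strand) and Tnip1 (chr11:54962978-54963007, minus strand) began 106 and 58 bases before the start site, and the one printed for Tnfaip3 (chr10:19015403-19015432, minus strand) began 12 bases before it, with a further match 125 bases before it that is not shown. For Nfkb2, the window at chr19:46304689-46304717 on the plus strand is printed, which lies 39 bases before the first of its 3 start sites and within an annotated exon, and 3 further matches are not shown.
Bcl3: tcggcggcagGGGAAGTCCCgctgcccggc
Nfkbie: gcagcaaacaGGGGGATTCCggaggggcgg
Tnip1: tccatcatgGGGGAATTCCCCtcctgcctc
Tnfaip3: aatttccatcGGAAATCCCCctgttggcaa
Nfkb2: gatcgtcacGGGAATTCCCCccctcgggg

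The total count per mouse lay between 13760669 and 25178942. Luminal epithelial and prostate secretory genes were expressed in every mouse, with Pbsn, the probasin gene, between 1094 and 9172 CPM (counts scaled to the library size and by TMM), Krt8, a luminal keratin gene, between 275 and 476 CPM and Epcam, an epithelial adhesion gene, between 197 and 440 CPM. Several libraries stood apart. The 4 seminal vesicle genes summed to 87860 CPM in etanercept 17 and to at most 3566 CPM in the other mice, Ptprc, the gene of the leukocyte antigen CD45, had 78.7 CPM in control 3 and at most 23.1 CPM in the other control mice, and the 10 most abundant genes held 31.1% of the counts of control 69. In bulk tissue, fewer cells of a type and less RNA per cell cannot be told apart.

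No gene of the table was called in the comparison of etanercept-treated with control mice by the quasi-likelihood test of edgeR at a threshold of 0.05 after Benjamini-Hochberg adjustment (0 of 15472 genes, 0.0%), and the 10 genes had adjusted p-values between 0.739 and 0.967. At an unadjusted p of at most 0.05, Nfkbia and Bcl3 were lower with etanercept, 2 of the 10 genes beside 3.63% of all tested genes (561 genes), and 0 were higher beside 2.99% (463 genes). DESeq2's Wald test gave the same 2 genes as lower at an unadjusted p of at most 0.05, beside 3.6% of all genes, 0 as higher, beside 2.24%, and called 21 genes at an adjusted p of at most 0.05, 0.121% of the genes it adjusted, with 0 of the 10 among them. The log2 fold change was below 0 in 8 of the 10 genes, as it was in 51.0% of all tested genes, and the median over the group was −0.25 where that over all tested genes was −0.0099. Without control 3 the median over the group was −0.12, with 7 of 10 genes below 0, and without control 69 it was −0.38. In none of the 10 did the groups separate completely. This occurred in the lower direction in 2.53% and in the higher direction in 2.41% of all tested genes.

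**Figure D1:**
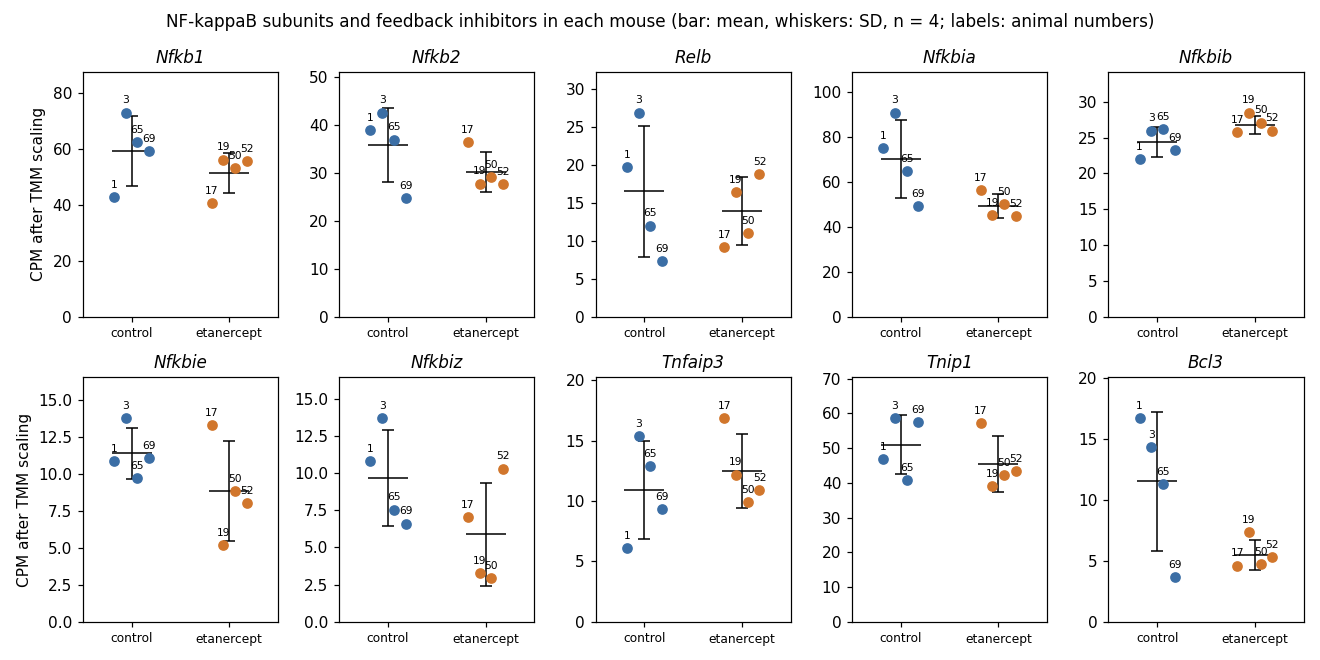
Expression of the 10 genes in CPM after TMM scaling (y axes from 0), with 1 point per mouse labelled by animal number, the group mean as a bar and the SD as whiskers (n = 4 per group). Etanercept values of Nfkbia and Bcl3 lie within a narrow range near the lowest control mouse, number 69, while the control values spread upwards to 90.8 and 16.7 CPM.

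Nfkbia encodes IκBα, the principal cytoplasmic inhibitor and the best known NF-κB-induced feedback gene (chromosome 12, 55489410 to 55492647). Its expression was 75.0, 90.8, 64.9 and 49.3 CPM in control 1, 3, 65 and 69 and 56.4, 45.2, 50.2 and 44.7 CPM in etanercept 17, 19, 50 and 52. Control 1, 3 and 65 lay above all treated mice, and control 69 lay below 2 of them. The means were 70.0 ± 17.4 and 49.1 ± 5.43 CPM (mean ± SD, n = 4 mice a group), a log2 fold change of −0.51 (SE, standard error, 0.20, 95% interval −0.96 to −0.061, unadjusted p = 0.0299, adjusted p = 0.739 from edgeR), or 70.2% of the control level. Without control 3 the change was −0.36 (unadjusted p = 0.0928 from edgeR). Without control 69 it was −0.65 (unadjusted p = 0.0049 from edgeR), and the groups no longer overlapped, as in 6.9% of all tested genes in that direction.

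Bcl3 encodes a nuclear IκB protein that binds p50 and p52 homodimers and can activate transcription (chromosome 7, 19808462 to 19822770). It had the largest fitted change of the group. Expression was 16.7, 14.3, 11.3 and 3.65 CPM in control 1, 3, 65 and 69 and 4.60, 7.33, 4.72 and 5.27 CPM in etanercept 17, 19, 50 and 52. Control 1, 3 and 65 again lay above every treated mouse, whereas control 69 was the lowest of all 8 mice. The means were 11.5 ± 5.67 and 5.48 ± 1.26 CPM (mean ± SD, n = 4 mice a group), and the log2 fold change was −1.07 (SE 0.45, 95% interval −2.08 to −0.055, unadjusted p = 0.0407, adjusted p = 0.743 from edgeR). Without control 1 it was −0.84 (unadjusted p = 0.113 from edgeR), and without control 69 it was −1.36 (unadjusted p = 0.0018). Bcl3 shares 161 exon bases with the antisense transcript Gm16175, which had 0 counts.

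Length and GC trends of the libraries also separated the groups. Spearman's rho across genes between exon length and how far each gene departed from its own mean ran from −0.179 to −0.0284 in control and from 0.0213 to 0.116 in treated mice. For GC content it ran from −0.000269 to 0.216 in control and from −0.136 to −0.0644 in treated mice. With the length trend removed the log2 fold change was −0.37 for Nfkbia (exon length 1610 nt, unadjusted p = 0.0785 from edgeR) and −0.99 for Bcl3 (2475 nt, unadjusted p = 0.0507). With the GC trend removed it was −0.45 (unadjusted p = 0.0414 from edgeR) and −0.81 (unadjusted p = 0.0845).

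Markers of T cells and immediate early genes were, like Nfkbia and Bcl3, mostly at lower fitted values with etanercept, whereas the direction of the pan-leukocyte and B cell markers depended on control 3. Of all tested genes, 51.0% had a negative log2 fold change, and 3.63% were lower and 2.99% higher with an unadjusted p up to 0.05. All 7 T cell markers had a negative log2 fold change, 4 of them with such a p, and their sum ranged from 62.7 to 165 CPM in control and from 46.6 to 70.0 CPM in etanercept-treated mice. Macrophage markers were negative in 8 of 8 genes (3 with such a p, sums of 471 to 1512 and 413 to 560 CPM), B cell markers in 6 of 6 (0 with such a p, 69.9 to 334 and 37.2 to 156 CPM) and pan-leukocyte markers in 7 of 7 (0 with such a p, 315 to 897 and 295 to 565 CPM). Without control 3 the number of negative genes was 7 of 7 for T cells, 5 of 8 for macrophages, 2 of 6 for B cells and 2 of 7 for pan-leukocyte markers, with 50.3% of all tested genes negative. Ptprc had a log2 fold change of −0.020 (SE 0.52), or 0.84 without control 3 (unadjusted p = 0.0265 from edgeR). Cd3e, of T cells, had −1.05 (SE 0.35), or −0.77 without control 3, and Adgre1, of macrophages, −0.42 (SE 0.45), or −0.13 without control 3. Plasma cell markers were negative in 2 of 3 tested genes, both with such a p (396 to 3922 and 242 to 1069 CPM, with Tnfrsf17 at 0 in at least 1 mouse). The list of 10 immediate early and heat shock genes, 9 of them negative and 5 with such a p, summed to between 317 and 739 CPM in control and between 265 and 310 CPM in etanercept-treated mice. Apart from Tnfrsf17, each gene of these lists had counts in every mouse. For markers of other cell types, all 5 smooth muscle markers had a positive log2 fold change, 3 of them with such a p (sums of 3038 to 6214 and 5551 to 11060 CPM). Basal epithelial markers were negative in 4 of 4 genes, 2 with such a p (163 to 355 and 119 to 220 CPM), endothelial markers in 5 of 5, 0 with such a p (49.9 to 119 and 38.8 to 65.1 CPM), and adipocyte markers in 4 of 4 tested, 3 with such a p (4.16 to 99.6 and 0.699 to 7.97 CPM, with Adipoq, Retn, Lep and Cidec at 0 in at least 1 mouse). With treated sums this low, adipocyte genes may have passed the expression filter through the control mice, which would fix their direction. Luminal markers were negative in 5 of 7 genes (4499 to 12397 and 4537 to 10769 CPM) and fibroblast markers in 2 of 5 (378 to 987 and 544 to 999 CPM), with 0 at such a p in both lists. Skeletal muscle markers were negative in 3 of 4 tested genes, 1 with such a p (69.1 to 1717 and 689 to 1313 CPM, with Myh4, Tnnt3 and Mylpf at 0 in at least 1 mouse). Without control 3 the number of negative genes was 9 of 10 for immediate early and heat shock genes, 4 of 4 for basal, 3 of 5 for endothelial and 4 of 4 for adipocyte markers, and 0 of 5 for smooth muscle, 0 of 5 for fibroblast and 0 of 4 for skeletal muscle markers. The part of these cells and genes in the changes of Nfkbia and Bcl3 was not tested.

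**Figure D2:**
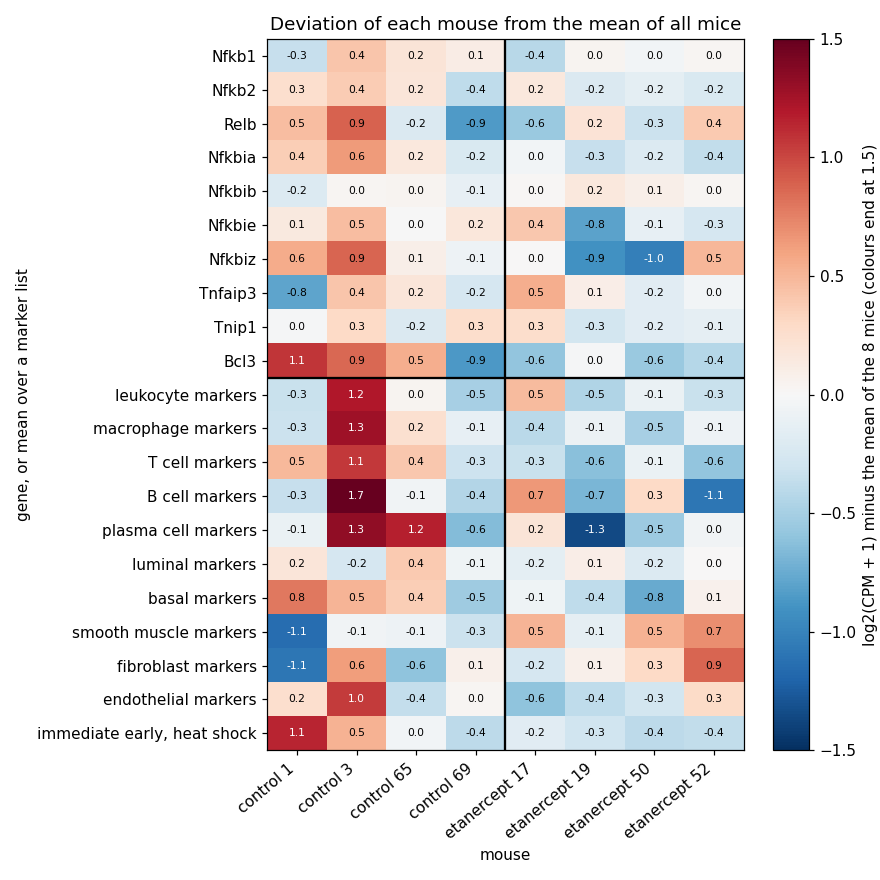
Heat map of log2(CPM + 1) minus the mean of the 8 mice, with the 10 genes above the black line and the means of marker lists below it, 1 column per mouse and controls to the left. Control 3 is the highest mouse in 7 of the 10 genes and in the 4 leukocyte lists, and control 69 is the lowest mouse in Nfkb2, Relb and Bcl3.

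Of the other classical inhibitors, Nfkbib encodes IκBβ, which is less responsive to NF-κB than IκBα (chromosome 7, 28758251 to 28767512). It had 22, 26, 26.2 and 23.3 CPM in control 1, 3, 65 and 69 and 25.8, 28.5, 27.1 and 26 CPM in etanercept 17, 19, 50 and 52. It was the least variable gene of the group, with a coefficient of variation of 8.53% in control and 4.63% in etanercept-treated mice, and its log2 fold change of 0.14 had a 95% interval of −0.21 to 0.49 (adjusted p = 0.931 from edgeR). Its exons overlap those of Sirt2 and Ccer2 on the other strand by 42 and 314 bases, and, with the strand setting not given, reads of the overlap cannot be assigned to either gene here.

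Nfkbie encodes IκBε, a further NF-κB-inducible inhibitor (chromosome 17, 45555703 to 45563169). It had 10.9, 13.8, 9.72 and 11.1 CPM in control 1, 3, 65 and 69 and 13.3, 5.19, 8.85 and 8.04 CPM in etanercept 17, 19, 50 and 52. Etanercept 17 lay among the control mice and the other 3 treated mice lay below all controls, and the log2 fold change was −0.36 (SE 0.33, adjusted p = 0.899 from edgeR). Without etanercept 17 it was −0.63 (unadjusted p = 0.0708 from edgeR), and 4.47% of all tested genes separated in that direction in this fit. Without etanercept 19 it was −0.18 (unadjusted p = 0.589 from edgeR).

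Per exon length, transcripts of Nfkbia made up most of the transcripts of these 3 inhibitors. Their share of the summed FPKM (CPM divided by the exon length in kilobases) was 77.2%, 77.3%, 72.5% and 68.0% in control 1, 3, 65 and 69 and 68.3%, 65.4%, 67.0% and 65.5% in etanercept 17, 19, 50 and 52. Nfkbib accounted for 19.7 ± 3.66% in control mice and for 27.2 ± 3.11% in treated mice (mean ± SD, n = 4 mice a group), and Nfkbie for 6.51 ± 1.09% and 6.24 ± 1.87%. The share of Nfkbia in control 69 lay below that in etanercept 17, and all other control mice lay above all treated mice. With the longest coding transcript as the length, the Nfkbia share was 72.3 ± 4.56% and 65.1 ± 1.15%. The shares were not tested.

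Nfkbiz encodes IκBζ, an inducible nuclear IκB protein that acts with p50 on secondary response genes (chromosome 16, 55811375 to 55838899). It had 10.8, 13.7, 7.54 and 6.60 CPM in control 1, 3, 65 and 69 and 7.05, 3.26, 2.93 and 10.3 CPM in etanercept 17, 19, 50 and 52. The 2 lowest values were those of etanercept 19 and 50, while etanercept 52 lay above 2 control mice. The log2 fold change was −0.72 (SE 0.47, 95% interval −1.77 to 0.33, adjusted p = 0.832 from edgeR). It rested on 49 to 298 counts per mouse, and without 1 mouse it lay between −1.15 without etanercept 52 (unadjusted p = 0.038 from edgeR) and −0.50 without etanercept 50 (unadjusted p = 0.324).

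Tnfaip3 and Tnip1 had small fitted differences. Tnfaip3 encodes A20, which removes and adds ubiquitin on signalling proteins below the TNF receptor to end the signal (chromosome 10, 19000910 to 19015657). It had 6.11, 15.4, 12.9 and 9.32 CPM in control 1, 3, 65 and 69 and 16.9, 12.2, 9.92 and 10.9 CPM in etanercept 17, 19, 50 and 52. Control 1, which had the highest Bcl3 value, had the lowest Tnfaip3 value of all mice. The log2 fold change of 0.20 (95% interval −0.56 to 0.95, adjusted p = 0.967 from edgeR) became −0.024 without control 1.

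Tnip1 encodes ABIN1, a ubiquitin-binding partner of A20 (chromosome 11, 54910785 to 54962917). Its values were 46.9, 58.7, 40.9 and 57.5 CPM in control 1, 3, 65 and 69 and 57.3, 39.1, 42.3 and 43.3 CPM in etanercept 17, 19, 50 and 52. The ranges of the groups overlapped widely, with a log2 fold change of −0.16 (95% interval −0.58 to 0.25, adjusted p = 0.932 from edgeR).

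**Figure D3:**
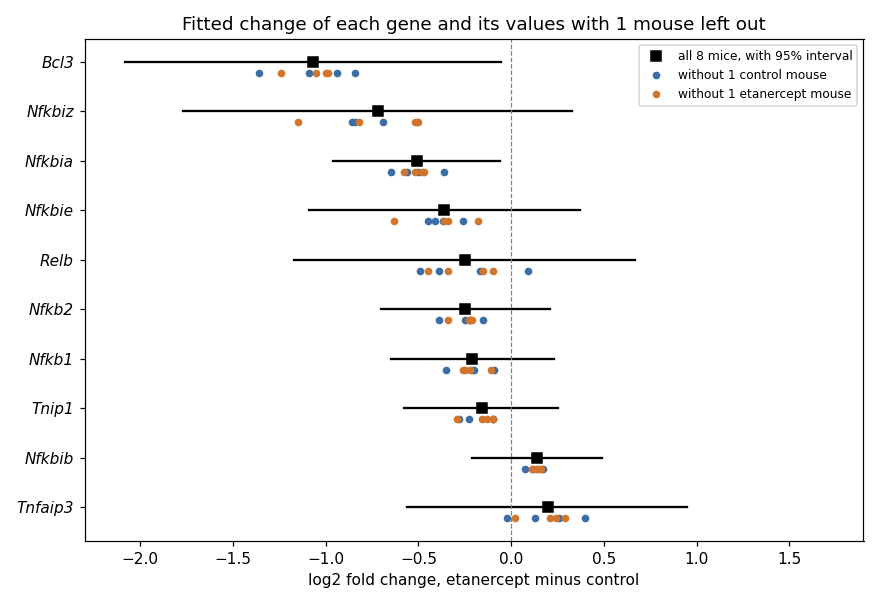
Fitted log2 fold change of the 10 genes, etanercept minus control (x axis), with black squares for all 8 mice, lines for the 95% interval and coloured points for fits without 1 control or 1 etanercept-treated mouse. The intervals of Bcl3 and Nfkbia end at −0.055 and −0.061, those of the other 8 genes include 0, and the points of Relb and Tnfaip3 lie on both sides of 0.

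Among the subunits, Nfkb1 encodes p105, the precursor of p50 (chromosome 3, 135584655 to 135691547). It had 42.8, 73.1, 62.6 and 59.2 CPM in control 1, 3, 65 and 69 and 40.7, 56.3, 53.2 and 55.6 CPM in etanercept 17, 19, 50 and 52. Control 3, 65 and 69 were above all treated mice, and control 1 was next to the lowest of the 8. The log2 fold change was −0.21 (95% interval −0.65 to 0.23, adjusted p = 0.906 from edgeR), and the groups did not overlap without control 1, where it was −0.35 (unadjusted p = 0.0815 from edgeR) and 4.18% of all tested genes separated in that direction. Without control 3 it was −0.094 (unadjusted p = 0.665 from edgeR) and without etanercept 17 −0.11.

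Nfkb2 encodes p100, the precursor of p52 (chromosome 19, 46304320 to 46312385). It had 38.9, 42.5, 36.9 and 24.7 CPM in control 1, 3, 65 and 69 and 36.3, 27.7, 29.1 and 27.6 CPM in etanercept 17, 19, 50 and 52. Control 69 was the lowest mouse, and the other controls were above all treated mice. The log2 fold change was −0.25 (95% interval −0.70 to 0.21, adjusted p = 0.879 from edgeR), and without control 69 it was −0.39 (unadjusted p = 0.0554). Without control 3 it was −0.15 (unadjusted p = 0.499 from edgeR) and with the GC trend removed −0.081 (unadjusted p = 0.681). Nfkb2 shares 299 exon bases with Psd on the other strand, which had 1965 counts in all mice together beside 4688 of Nfkb2, and 531 exon bases with AC114539.1, for which no counts were used here.

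Relb encodes the partner of p52 in the non-canonical branch (chromosome 7, 19606217 to 19629438) and lies 179023 bases from Bcl3. It was the most variable gene of the group in control mice, with a coefficient of variation of 52.2%. It had 19.7, 26.9, 12 and 7.35 CPM in control 1, 3, 65 and 69 and 9.20, 16.4, 11 and 18.8 CPM in etanercept 17, 19, 50 and 52. Treated values lay inside the control range, and the log2 fold change of −0.25 (95% interval −1.17 to 0.67, adjusted p = 0.965 from edgeR) became 0.093 without control 3.

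Per exon length, Nfkbia was the most abundant of the 10 transcripts, with 43.5 ± 10.8 FPKM in control and 30.5 ± 3.37 FPKM in etanercept-treated mice (mean ± SD, n = 4 mice a group). It lay above the next gene, Tnip1 (14.4 ± 2.41 FPKM in control mice), in all 8 mice. Tnip1 and Nfkbib (11.2 ± 0.958) overlapped, as did Nfkb1 (4.93 ± 1.04), Bcl3 (4.64 ± 2.29), Relb (4.24 ± 2.21) and Nfkbie (3.74 ± 0.566). Nfkb2, at 7.80 ± 1.69 FPKM, was below Nfkbib and above Nfkb1 in all 8 mice, although the control ranges of Nfkb2 and Nfkb1 overlapped. Nfkbiz (1.93 ± 0.648) and Tnfaip3 (1.51 ± 0.563) were the least abundant and did not differ beyond their spread. The order depended on the length used. For Nfkb1, the annotated exons cover 12061 nt and the longest coding transcript 4117 nt, with which its level was 14.4 ± 3.05 and its rank 3 in place of 5. With that length Relb, at 7.45 ± 3.89, came before Bcl3, at 6.20 ± 3.07, and Tnfaip3, at 2.47 ± 0.920, before Nfkbiz, at 2.35 ± 0.790.

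**Figure D4:**
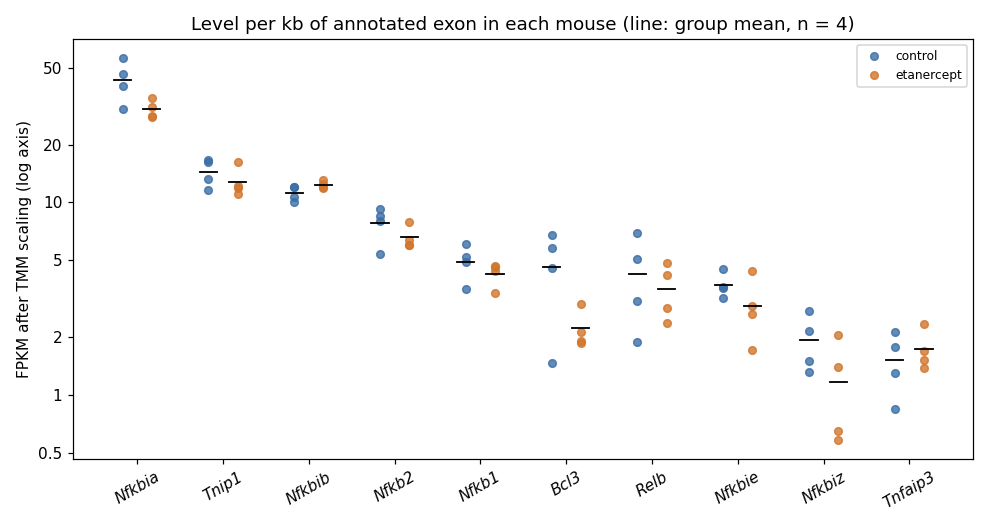
FPKM after TMM scaling (log axis) of each gene in each mouse, ordered by the control mean, with black lines for group means (n = 4 per group). Nfkbia lies above all other genes in each mouse, and the mean of Bcl3 is 4.64 FPKM in control and 2.21 FPKM in etanercept-treated mice.

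The 10 genes varied between mice in a partly shared manner. Control 3 was the highest of the 8 mice in 7 of them, namely Nfkb1, Nfkb2, Relb, Nfkbia, Nfkbie, Nfkbiz and Tnip1, beside 13.0% of all tested genes. Control 1 and control 3 were the 2 highest mice in 5 of the genes, Nfkb2, Relb, Nfkbia, Nfkbiz and Bcl3, beside 5.13% of all tested genes. These mice and this pair were not set in advance, so the counts only describe the values at hand. Control 69 was the lowest in Nfkb2, Relb and Bcl3 and in 22.1% of all tested genes. Tnf, the ligand that etanercept captures, was counted 66 and 18 times in control 1 and control 3, 0 times in control 65 and 69, 8 times in etanercept 50 and 0 times in the other treated mice, and did not pass the expression filter.

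Because tissue leukocytes express many of these genes, each gene was set beside a leukocyte score, the mean log2(CPM + 1) of Ptprc and 6 further pan-leukocyte genes, across the 8 mice. The score was 6.90 in control 3, 6.18 in etanercept 17 and between 5.21 and 5.75 in the other mice. Nfkb2 had Pearson's r = 0.74 (exact permutation test over 40320 pairings, p = 0.0181) and Spearman's rho = 0.81 (exact permutation p = 0.0218), and Nfkbia r = 0.71 (exact permutation p = 0.0403) and rho = 0.74 (exact permutation p = 0.0458). With adjustment over all 15465 genes compared, the exact permutation p of r was 0.611 and 0.730 and that of rho was 0.599 and 0.621. An unadjusted exact permutation p of at most 0.05 with a positive r was found in 4.49% of all genes compared and an adjusted one in 0 genes (0.0%). The r of Tnfaip3 was 0.67, of Nfkbie 0.65, of Tnip1 0.55, of Nfkbiz 0.46, of Relb 0.36, of Bcl3 0.35, of Nfkb1 0.31 and of Nfkbib 0.19.

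These relations rested in part on the 2 mice with the highest scores. Without control 3 and etanercept 17, r was 0.58 for Nfkb2 and 0.41 for Nfkbia, −0.49 for Tnip1 and −0.05 for Relb and Nfkbiz. Control 3, the highest mouse both in the score and in 7 of the genes, carried much of this. Without it alone, r was 0.66 for Tnfaip3, 0.61 for Nfkb2, 0.55 for Nfkbie, 0.30 for Nfkbia, 0.28 for Tnip1, 0.20 for Nfkbib and 0.05 for Nfkbiz, and −0.08 for Bcl3, −0.34 for Relb and −0.48 for Nfkb1. With both measures centred within each group, and control 3 and etanercept 17 kept, r was 0.75 for Nfkb2, 0.82 for Nfkbia, 0.77 for Tnfaip3 and 0.66 for Nfkbie. In the other genes this r lay between 0.26 for Nfkb1 and 0.53 for Tnip1. Bcl3, with the largest fitted change of the group, had r = 0.30 within groups. The order of the genes depended on the score. With macrophage markers as the score r was 0.79 for Nfkb1, 0.65 for Nfkbia and 0.50 for Nfkb2, and with B cell markers it was 0.25, 0.72 and 0.69.

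The wider pathway was described with gene lists beside the 10 genes. Of the other subunit and IκB genes, Rela, the gene of p65, averaged 72.0 ± 9.05 CPM in control mice against 58.7 ± 11.1 CPM with etanercept (mean ± SD, n = 4 mice a group) with a log2 fold change of −0.29 (SE 0.18, unadjusted p = 0.128 from edgeR). Rel and Nfkbid had log2 fold changes of −0.26 and −0.17 (SEs 0.47 and 1.30). Rela made up 57.3 ± 5.61% of the FPKM of the 5 subunit genes in control and 55.6 ± 3.49% in etanercept-treated mice. Relb made up 10 ± 4.44% and 10.3 ± 2.30%. The Rela share depended on the length used. With the longest coding transcript as the length, it was 45.7 ± 5.04% in control and 44.0 ± 2.78% in treated mice. That of Relb was then 12.4 ± 5.4% and 12.6 ± 2.69%.

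Of the 11 genes of the IKK complex and upstream kinases, 0 passed an unadjusted p of at most 0.05 in either direction, and their median log2 fold change was 0.15, with 7 of 11 positive. In Tab3, an adaptor gene of the TAK1 kinase named after its values were seen, every treated mouse lay above every control mouse, at 29.0 to 38.3 against 25.3 to 27.4 CPM, as in 2.41% of all tested genes. The kinase genes Chuk and Ikbkb and the scaffold gene Ikbkg had log2 fold changes of 0.33, 0.023 and 0.22 (SEs 0.20, 0.22 and 0.19), where that of Ikbkb was −0.047 with library size alone. Of 13 further negative regulators 0 passed as well, again near these shares, with a median of 0.053. Cyld, a deubiquitinase that opposes the signal, had a log2 fold change of 0.053 (SE 0.19), or −0.042 with library size alone. The receptor genes Tnfrsf1a and Tnfrsf1b had log2 fold changes of −0.067 and −0.21 (SEs 0.19 and 0.42).

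Of the 17 tested inflammatory target genes, 3 were lower with an unadjusted p up to 0.05 and 0 were higher, where 3.63% and 2.99% of all tested genes were. The median was −0.42, with 11 genes negative and 6 positive. The 3 were Ccl5, a T cell chemokine, Nos2, the inducible nitric oxide synthase, and Irf1, a transcription factor of interferon responses, with log2 fold changes of −1.81, −4.47 and −0.51 (SEs 0.58, 1.5 and 0.19). The counts of Nos2 were 33, 64, 25 and 11 in control 1, 3, 65 and 69, and 0, 0, 0 and 5 in the treated mice, so that its fold is poorly determined. Nos2 passed the expression filter only through the control mice, so its direction was fixed by the filter and adds nothing to that of the list. Apart from it, Ccl5 and Irf1 were the inflammatory targets lower at that p. The unadjusted p from edgeR was above 0.05 for Nos2 without control 3 (unadjusted p = 0.0603) and for Irf1 without control 1, control 65 or etanercept 52, up to 0.0557. The 9 survival target genes had a median of 0.014, with 5 positive, and at that p 1 was lower and 0 higher. The lower gene was Bcl2l1, which encodes the anti-apoptotic protein Bcl-xL, with 147 ± 26.3 and 84.2 ± 25.0 CPM and a log2 fold change of −0.80 (SE 0.24). Every treated mouse lay below every control mouse in Bcl2l1, at 59.2 to 106 against 119 to 174 CPM, as in 2.53% of all tested genes. In Xiap, an apoptosis inhibitor gene also named after its values were seen, the treated mice lay above the control mice, at 56.0 to 70.1 against 47.7 to 53.7 CPM, as in 2.41% of all tested genes.

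Of the 5 tested target genes of the lymphoid branch 2 passed that p as lower and 0 as higher, beside 3.63% and 2.99% of all tested genes, with a median of −0.79. Without control 3, 1 of the 5 lymphoid and 2 of the 17 inflammatory targets were lower at that p, beside 3.03% of all tested genes. The medians were then −0.52 and −0.11, where that over all tested genes was −0.0034. Cxcl13, a B cell attracting chemokine, had 116 ± 65.7 and 59.3 ± 8.50 CPM and a log2 fold change of −0.97 (SE 0.34), and Ltb, the gene of lymphotoxin β, had 29.8 ± 10.5 and 17.2 ± 6.41 CPM and −0.79 (SE 0.35). Ltb had an unadjusted p of 0.0495 from edgeR, which was above 0.05 with the length trend removed (unadjusted p = 0.083), with the GC trend removed (unadjusted p = 0.11) and without any 1 of 6 mice, up to 0.13 without control 3. That of Cxcl13 was 0.0518 with the length trend removed. Ccl21a had 0 counts in every mouse. With edgeR, the smallest adjusted p among these target genes was 0.739. Control 3 had the highest Cxcl13 and Ltb values, 209 and 39.8 CPM, and control 1 the highest Ccl5 value, 138 CPM. Without control 3 the log2 fold change of Cxcl13 was −0.52, and without control 1 that of Ccl5 was −1.04.

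**Figure D5:**
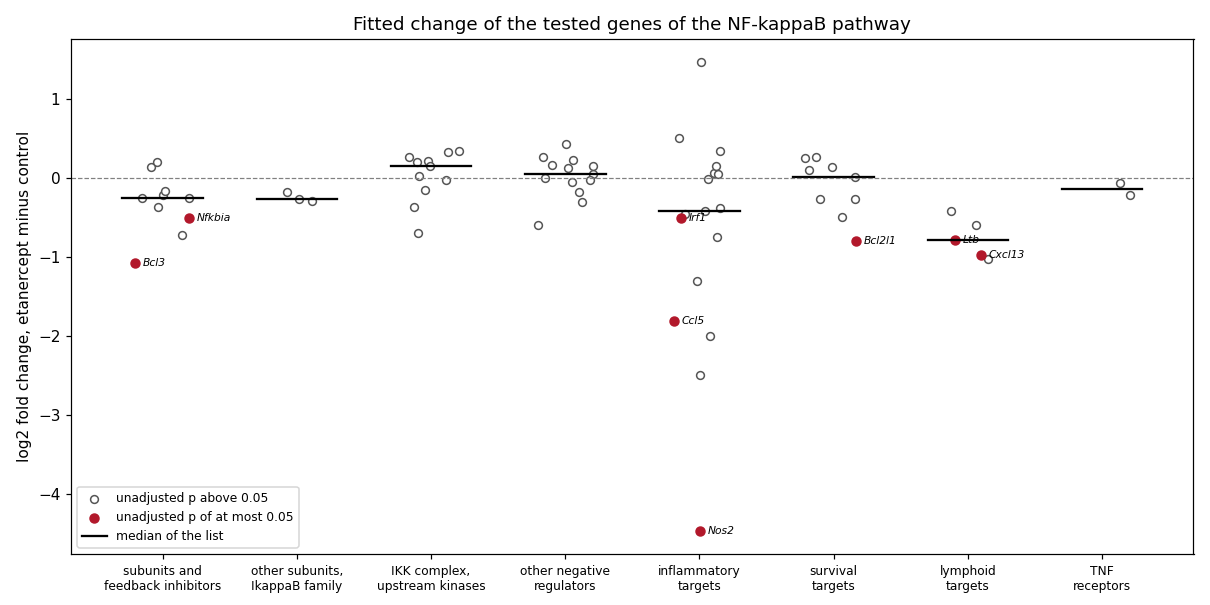
Fitted log2 fold change (etanercept minus control, y axis) of the tested genes of each pathway list, with filled points where edgeR's unadjusted p was 0.05 or less and black lines for list medians. The medians of the 10 subunit and inhibitor genes, the inflammatory targets and the lymphoid targets are −0.25, −0.42 and −0.79. All 8 filled points lie below 0, and the direction of 1 of them, Nos2, was fixed because it passed the expression filter only through the control mice.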

How the data were processed

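Frozen prostates were extracted with TRIzol, and poly(A)-selected libraries were sequenced as paired reads of 150 nt by Novogene. Per the labels, reads were trimmed with fastp, mapped to mm10 with STAR 2.6.1d and counted per gene with featureCounts 1.5.0-p3. The authors deposited these raw counts, without normalization, and tested them with DESeq2 1.26.0. The annotation and strand setting of the counting are not given in the sources used here. Genes were named and located with GENCODE M21 (GRCm38, the assembly of mm10), which holds 54495 of the 54532 identifiers. The other 37 held 0.00429% of all counts.

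Counts were compared in R 4.3.3 with edgeR 4.0.16, using TMM normalization, filterByExpr (minimum count 10) and the quasi-likelihood test, checked on simulated data. The standard error is the log2 fold change divided by the square root of F, and intervals of 95% use the total degrees of freedom. FPKM divides CPM by the exon union. Each mouse is a replicate, and depth between 13760669 and 25178942 counts limits genes with few reads. Correlations used exact permutation (scipy 1.17.1). The genes, lists and tests were chosen with earlier results of these data known. Named are the 10 genes, 10 fixed pathway genes, up to 4 genes per list with the smallest unadjusted p, fixed single markers (the result of 1 is not reported here) and genes at 0 in every mouse. Alternatives were DESeq2 1.42.0, other scaling factors, filters, a robust fit, lowess removal of length or GC trends (span 0.3) and leaving out each mouse. A further alternative was a term that split the animal numbers into those below 20 and those above 49. Added after the data were seen were the longest coding transcript as length and list counts without control 3.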

Additional observations from a re-analysis of the deposited data

Results flagged for a closer look

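In groups of 4 mice, the highest or lowest value was compared with the others by Dixon's ratio of its gap to the range, over 64 groups of values, of which chance flags about 1 in 20. Of the 10 genes, Nfkb2 in etanercept 17 stood apart, at 36.3 CPM where the other treated mice lay between 27.6 and 29.1 CPM (ratio 0.83). Ptprc had 78.7 CPM in control 3 and between 15.6 and 23.1 CPM in the other control mice. Tnf had 0.478 CPM in etanercept 50 and Nos2 0.346 CPM in etanercept 52, with 0 in the other treated mice, so that these 2 rest on 8 and 5 counts.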

How the results depend on the processing

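No paired analysis was possible because the groups share no animal number. DESeq2 called 21 genes, and the other settings 0, as did every fit without 1 mouse. Of the 10 genes, 0 were lower at an unadjusted p of at most 0.05 with the length trend removed, beside 3.45% of all tested genes. With the GC trend removed the count was 1, beside 3.28%, and without 1 mouse it was 0 to 2, beside 2.49% to 5.98%. It was 0 without control 1, control 3 or etanercept 50, and 1 without control 65 or etanercept 17 (Nfkbia), etanercept 19 (Bcl3) or etanercept 52 (Nfkbiz). Groups did not overlap in 1 gene, Nfkbib, in the higher direction, with at least 10 counts in every mouse, with the length trend removed and with the GC trend removed, beside 2.7%, 1.79% and 1.36% of all genes, and in 0 to 3 genes without 1 mouse. These 3 were Nfkb2, Nfkbia and Bcl3 without control 69, beside 6.9% of all genes in that direction. The median log2 fold change of the 10 genes lay between −0.38 without control 69 and −0.12 without control 3. The cause was not tested.

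Directions reversed in these cases. With library size alone the log2 fold change was −0.047 for Ikbkb and −0.042 for Cyld. With the length trend removed it was −0.15 for Ikbkb, −0.1 for Cyld and 0.25 for Pbsn. With the GC trend removed it was −0.089 for Cyld and 0.043 for Tnfrsf1a. With the split of animal numbers below 20 and above 49 as a term it was 0.1 for Ptprc. Without 1 mouse the range was −0.024 to 0.4 for Tnfaip3, −0.49 to 0.093 for Relb, −0.52 to 0.082 for Rel, −1.51 to 0.25 for Nfkbid, −0.13 to 0.14 for Ikbkb, −0.077 to 0.19 for Cyld, −0.19 to 0.0013 for Tnfrsf1a, −0.48 to 0.12 for Tnfrsf1b, −0.29 to 0.84 for Ptprc and −0.45 to 0.24 for Pbsn. Without 1 mouse, the r with the leukocyte score ranged from −0.48 to 0.69 for Nfkb1, −0.34 to 0.57 for Relb and −0.08 to 0.62 for Bcl3. Depth limits genes with few counts, such as Nfkbid, with 0 counts in its lowest mouse, and, of the 10 genes, Nfkbiz, with 49.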
